A study of Mus musculus with 8 samples.

Results

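Methionine and one-carbon metabolism was examined through 9 genes, Mat1a, Gnmt, Pemt, Nnmt, Ahcy, Bhmt, Cbs, Cth and Shmt1, in livers of MøFoxO1-KO mice and their WT littermates. The genes were chosen by symbol, which GENCODE M21 maps to 9 of the 46517 genes in the deposited table. The rule uses no measured value, but the choice was made with earlier results of these data known. RNA was sequenced from whole liver of 8 male C57BL/6 mice. The 4 MøFoxO1-KO mice carried FoxO1 alleles flanked by loxP sites together with a Cre driven by the Lyz2 promoter, which is active in myeloid cells, and the 4 WT littermates carried the floxed alleles without Cre. All 8 were placed on a NASH diet at 6 weeks of age, kept on it for 25 weeks, fasted for 16 hours and euthanized at 31 weeks of age. Each library came from a separate mouse, numbered 22 to 25 in the WT group and 26 to 29 in the MøFoxO1-KO group.

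The methionine cycle turns dietary methionine into S-adenosylmethionine, the methyl donor of the cell, and the liver carries out most of this work. Methyltransferases use the donor and leave S-adenosylhomocysteine, which is cleaved to homocysteine. Homocysteine is then either methylated back to methionine, with a methyl group from betaine or from folate, or passed down the transsulfuration pathway to cysteine and glutathione. Most of these enzymes are made chiefly by hepatocytes, whereas the Cre of these mice acts in myeloid cells.

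Total counts ranged from 15253218 to 18025481 per mouse, and mitochondrial genes held 4.16 to 6.33% of them. Foxo1 had a log2 fold change of -0.17 ± 0.18 (SE) in whole liver RNA (edgeR, Benjamini-Hochberg adjusted P = 0.686), which does not separate myeloid Foxo1 from that of other cells. WT mouse 23 lay furthest from the others on the first principal component, and its mean correlation with its own group was 0.956. Defining hepatocyte markers, such as Alb and Apoa1, were abundant in every library. The summed counts of the 8 hepatocyte markers ranged from 1236120 to 1617190 in WT mice and from 1553300 to 2187000 in MøFoxO1-KO mice, and 5 of the 8 were higher at an unadjusted P under 0.05. Macrophage markers summed to 2655 to 4079 in WT mice and to 3079 to 13432 in MøFoxO1-KO mice, with 5 of the 10 higher and 2 lower at an unadjusted P under 0.05. In whole liver RNA, fewer cells of a type and less RNA per cell cannot be told apart.

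None of the 9 genes differed between MøFoxO1-KO and WT livers at an adjusted P under 0.05. Pemt, which makes phosphatidylcholine, had the smallest P, with a mean of 6219 normalized counts in MøFoxO1-KO livers against 4763 in WT livers. Normalized counts are counts divided by the library size of the mouse after TMM scaling, relative to the mean library. The values of single mice spread widely in several of these genes: Bhmt, which remethylates homocysteine with betaine, ran from 6751 to 119238 normalized counts within the WT group. A call required a Benjamini-Hochberg adjusted P under 0.05 in edgeR's quasi-likelihood test together with an absolute log2 fold change over 1.5, and 0.188% of the 13278 tested genes met it, against 0 of these 9. Without the limit on fold change, edgeR's Benjamini-Hochberg adjusted P was under 0.05 for 0.294% of tested genes and for 0 of the 9. At an unadjusted P under 0.05, the count was 1 of 9, Pemt, while 16.7% of tested genes passed. DESeq2's Wald test gave an adjusted P under 0.05 for 4.42% of genes and for 0 of the 9. By limma-voom 0 of the 9 passed, where only 24 of the 13278 tested genes did. The groups did not overlap for 9.71% of all tested genes and for 0 of these 9. In all, 7 of the 9 log2 fold changes were positive and 2 were negative, with a median of 0.27 against -0.01 over all tested genes. Of all 13278 tested genes, 6417 had a positive and 6861 a negative log2 fold change. With library sizes set by the hepatocyte markers, the median of all genes moved to -0.38, and only Gnmt, Nnmt and Pemt kept a positive sign, Pemt at 0.00.

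**Figure D1:**
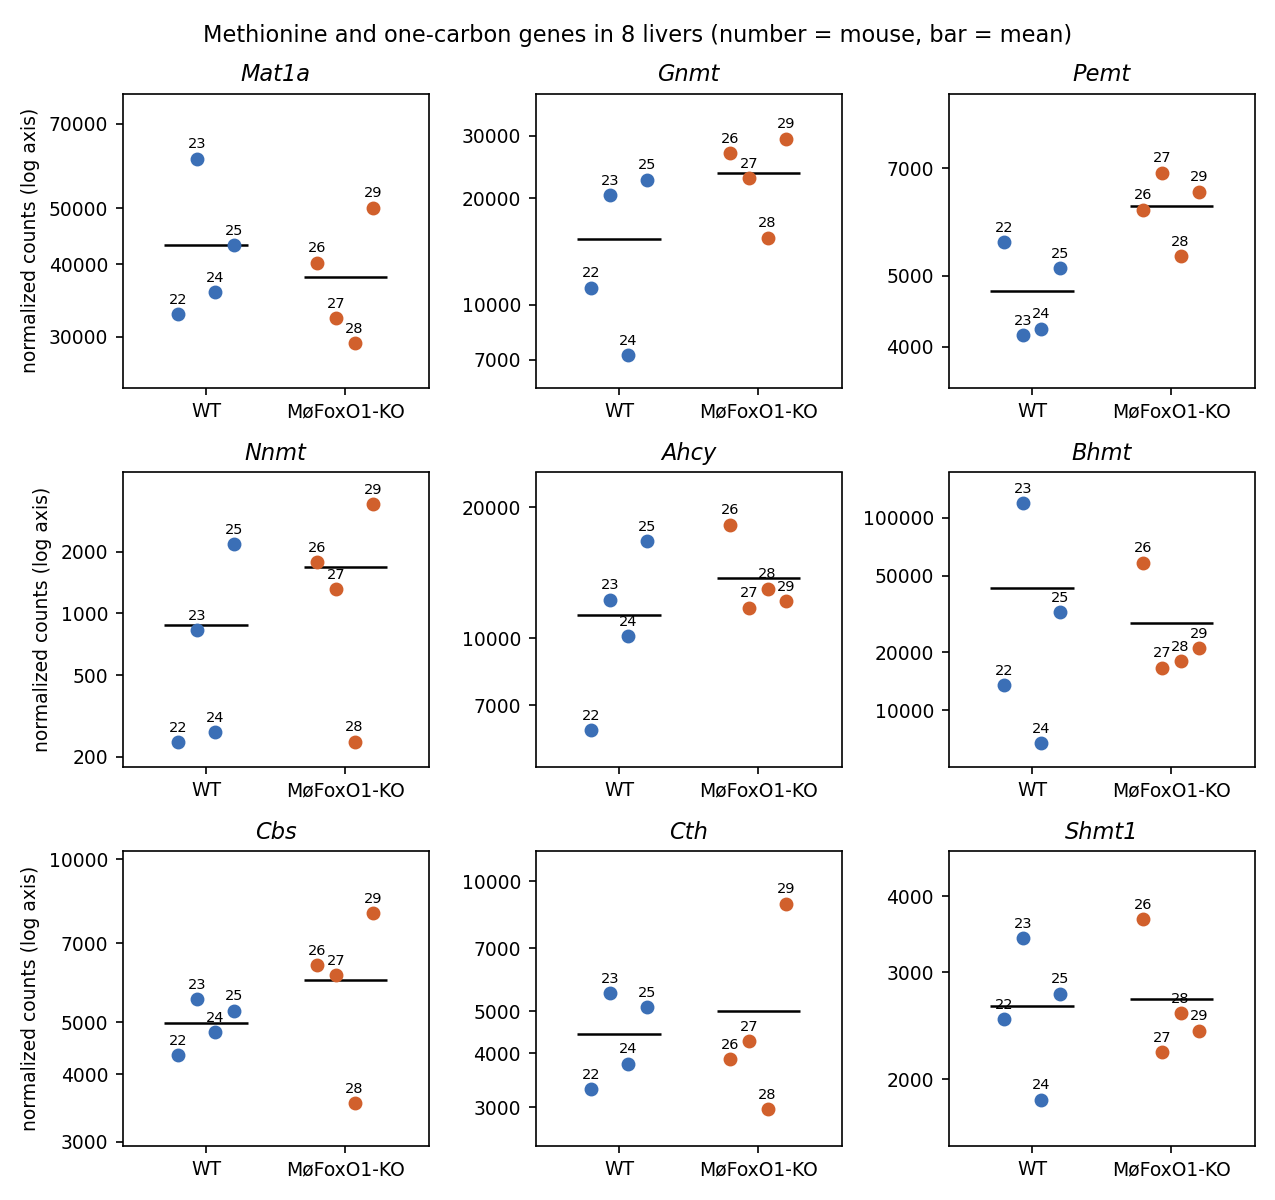
Normalized counts (log axis, a different range in each panel) of the 9 genes in each liver, with WT littermates in blue, MøFoxO1-KO mice in orange, mouse numbers above the points and group means as bars. The groups overlap in every panel, and the range within a genotype is widest for Nnmt and Bhmt.

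Mat1a (ENSMUSG00000037798) lies on the plus strand of chromosome 14 of GRCm38, from 41105381 to 41124412, and encodes the liver form of methionine adenosyltransferase, which makes S-adenosylmethionine. WT mice 22, 23, 24 and 25 had 32822, 60836, 35837 and 43129 normalized counts, and MøFoxO1-KO mice 26, 27, 28 and 29 had 40276, 32261, 29220 and 50106. The highest value was that of WT mouse 23, and the MøFoxO1-KO values fell within or just under the WT range. Group means were 43156 ± 12556 (SD, n = 4) and 37966 ± 9341 (SD, n = 4), a log2 fold change of -0.18 with a 95% interval from -0.71 to 0.34 (edgeR, Benjamini-Hochberg adjusted P = 0.736). Leaving out WT mouse 23 brought the log2 fold change to 0.03.

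The methyltransferases that use this donor were represented by Gnmt, Pemt and Nnmt. Gnmt (ENSMUSG00000002769; chromosome 17, 46725664 to 46729168, minus strand) encodes glycine N-methyltransferase, an abundant hepatic enzyme that consumes surplus S-adenosylmethionine. Its normalized counts were 11189, 20407, 7195 and 22556 in WT mice 22 to 25 and 26844, 22787, 15471 and 29489 in MøFoxO1-KO mice 26 to 29. The lowest values belonged to WT mice 24 and 22, 3 of the 4 MøFoxO1-KO mice lay above every WT mouse, and mouse 28 lay between the WT mice. WT mice averaged 15337 ± 7333 (SD, n = 4) and MøFoxO1-KO mice 23648 ± 6108 (SD, n = 4), for a log2 fold change of 0.62 with a 95% interval from -0.14 to 1.39 (edgeR, Benjamini-Hochberg adjusted P = 0.397). An exact two-sided permutation test of the 8 values gave P = 0.143, where 4 mice against 4 allow no P under 0.0286.

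Pemt (ENSMUSG00000000301; chromosome 11, 59970614 to 60046489, minus strand) encodes phosphatidylethanolamine N-methyltransferase, which converts phosphatidylethanolamine to phosphatidylcholine, a lipid needed for the export of VLDL. WT mice 22 to 25 had 5555, 4149, 4230 and 5117 normalized counts, and MøFoxO1-KO mice 26 to 29 had 6149, 6908, 5317 and 6504. Only mouse 28 of the MøFoxO1-KO group fell below the highest WT mouse, mouse 22. The log2 fold change was 0.38 with a 95% interval from 0.07 to 0.70, which is a 1.05- to 1.63-fold higher level, at an unadjusted P of 0.0218 and an adjusted P of 0.225 (edgeR, Benjamini-Hochberg). The exact permutation test gave P = 0.0571. Fits that each left out 1 mouse gave log2 fold changes between 0.32 and 0.47, whereas scaling by the hepatocyte markers gave 0.00. That scaling used the summed counts of the 8 hepatocyte markers. Their log2 fold changes ran from 0.19 for Alb to 1.07 for Apoa1, with a median of 0.48. Pericentral and periportal hepatocyte markers had medians of -0.01 and 0.22, so the rise was not shared by all hepatocyte genes. The part of the markers in the Pemt difference was not tested.

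Nnmt (ENSMUSG00000032271; chromosome 9, 48591877 to 48605153, minus strand) encodes nicotinamide N-methyltransferase, which spends the methyl donor on nicotinamide. Its normalized counts were 235, 827, 263 and 2183 in WT mice 22 to 25 and 1782, 1313, 237 and 3410 in MøFoxO1-KO mice 26 to 29. Low values near 250 counts occurred in both genotypes, in mice 22, 24 and 28, and the highest WT mouse exceeded the lowest by 9.30-fold, as against 14.4-fold among MøFoxO1-KO mice. The log2 fold change of 0.94 had a 95% interval from -0.86 to 2.75 (edgeR, Benjamini-Hochberg adjusted P = 0.601). The estimate moved to 1.93 without WT mouse 25 and to 0.34 without MøFoxO1-KO mouse 29.

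Ahcy (ENSMUSG00000027597; chromosome 2, 155059310 to 155074497, minus strand) encodes S-adenosylhomocysteine hydrolase, which removes the product that inhibits methyltransferases. WT mice 22 to 25 had 6144, 12254, 10107 and 16718 normalized counts, and MøFoxO1-KO mice 26 to 29 had 18223, 11737, 12985 and 12158. Both groups shared the range from 11737 to 16718, and the lowest value was that of WT mouse 22. The log2 fold change was 0.29 with a 95% interval from -0.33 to 0.90 (edgeR, Benjamini-Hochberg adjusted P = 0.646).

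Reads of Ahcy can be confused with those of Gm4737, a copy on the minus strand of chromosome 16 from 46152997 to 46155077. The coding sequences of the 2 genes in GENCODE M21 differed at 4 of 1299 positions, an identity of 99.7%. Of all 100-base windows of the Ahcy transcript, 72.1% also occurred in Gm4737 or Gm9826, and 87.2% of the Gm4737 windows occurred in Ahcy or Gm9826. The stretch below, coding positions 355 to 474 of both genes, is shown because it holds 2 of the 4 differences, in capitals, and how little separates the genes for a short read.
Ahcy: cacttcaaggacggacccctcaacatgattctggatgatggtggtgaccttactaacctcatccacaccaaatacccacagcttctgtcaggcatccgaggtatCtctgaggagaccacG
Gm4737: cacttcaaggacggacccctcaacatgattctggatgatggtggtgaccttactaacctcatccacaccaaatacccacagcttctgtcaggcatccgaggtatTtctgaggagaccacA
Gm4737 was counted at 7629, 12423, 3522 and 6128 normalized counts in WT mice 22 to 25 and at 6563, 4857, 5245 and 5417 in MøFoxO1-KO mice 26 to 29. Per length, the ratio of Ahcy to Gm4737 was 0.598, 0.732, 2.13 and 2.02 in the WT mice and 2.06, 1.79, 1.84 and 1.67 in the MøFoxO1-KO mice. Only WT mice 22 and 23 had more reads per length on the copy than on Ahcy. With both genes counted as 1, an alternative added after seeing the data, the log2 fold change was 0.04 ± 0.23 (SE) (edgeR, Benjamini-Hochberg adjusted P = 0.945). WT mice averaged a sum of 18731 ± 5857 (SD, n = 4), against 19296 ± 3721 (SD, n = 4) for MøFoxO1-KO mice. How the counting treated reads that match both genes is not given in the sources used here, so the level of Ahcy alone is uncertain.

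**Figure D2:**
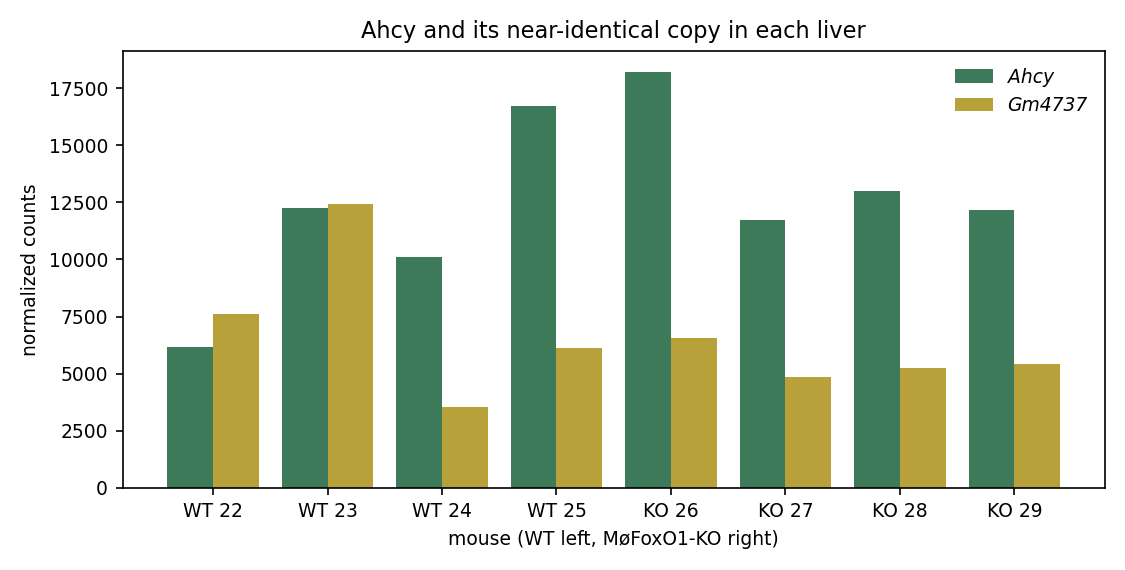
Normalized counts of Ahcy (green) and of its near-identical copy Gm4737 (ochre) in each of the 8 livers, as bars from 0. Gm4737 exceeds Ahcy in WT mice 22 and 23 and lies below it in the other 6 mice.

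Bhmt (ENSMUSG00000074768; chromosome 13, 93616891 to 93637961, minus strand) encodes betaine-homocysteine methyltransferase, which returns homocysteine to methionine with a methyl group of betaine. Its normalized counts were 13453, 119238, 6751 and 32217 in WT mice 22 to 25 and 58385, 16637, 18019 and 20929 in MøFoxO1-KO mice 26 to 29. Both the highest and the lowest liver belonged to the WT group, which spanned 17.7-fold, and the MøFoxO1-KO group spanned 3.51-fold with mouse 26 above the other 3. Means of 42915 ± 52011 (SD, n = 4) and 28493 ± 20009 (SD, n = 4) gave a log2 fold change of -0.59 with a 95% interval from -2.32 to 1.14 (edgeR, Benjamini-Hochberg adjusted P = 0.747). The sign rested on WT mouse 23, without which the log2 fold change was 0.71, and without MøFoxO1-KO mouse 26 it was -1.22.

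Bhmt2, the neighbouring paralog 17759 bases away, uses S-methylmethionine, and its coding sequence was 66.8% identical to that of Bhmt. Bhmt2 ran from 1720 to 4315 normalized counts in WT mice and from 2247 to 3603 in MøFoxO1-KO mice, and its log2 fold change was -0.00 ± 0.27 (SE). Mouse 23 was the highest of the WT mice and mouse 26 the highest of the MøFoxO1-KO mice for both genes, but the range of Bhmt2 was the narrower. Of the Bhmt windows of 100 bases, 41.6% also occurred in Bhmt-ps1 or Gm5096, so part of its reads could be shared with these copies, which had few counts. The other 7 genes held no such shared window.

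The transsulfuration pathway was represented by Cbs and Cth. Cbs (ENSMUSG00000024039; chromosome 17, 31612623 to 31637199, minus strand) encodes cystathionine beta-synthase, which commits homocysteine to cysteine synthesis. WT mice 22 to 25 had 4344, 5512, 4791 and 5247 normalized counts, and MøFoxO1-KO mice 26 to 29 had 6373, 6112, 3535 and 7947. The WT mice lay close together, and the MøFoxO1-KO mice fell on both sides of them, 3 above and mouse 28 below. The log2 fold change was 0.27 with a 95% interval from -0.21 to 0.75 (edgeR, Benjamini-Hochberg adjusted P = 0.575), and it was 0.47 without mouse 28.

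Cth (ENSMUSG00000028179; chromosome 3, 157894248 to 157925077, minus strand) encodes cystathionine gamma-lyase, which releases cysteine from cystathionine. Its normalized counts were 3303, 5500, 3784 and 5107 in WT mice 22 to 25 and 3879, 4269, 2967 and 8879 in MøFoxO1-KO mice 26 to 29. Mouse 29 alone lay above the WT range, and mouse 28 lay below it. The log2 fold change was 0.18 with a 95% interval from -0.53 to 0.89 (edgeR, Benjamini-Hochberg adjusted P = 0.824), and it turned to -0.26 without mouse 29.

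Shmt1 (ENSMUSG00000020534; chromosome 11, 60788104 to 60811718, minus strand) encodes the cytosolic serine hydroxymethyltransferase, which loads the one-carbon unit of serine onto folate. WT mice 22 to 25 had 2510, 3414, 1848 and 2765 normalized counts, and MøFoxO1-KO mice 26 to 29 had 3664, 2214, 2566 and 2403. The ranges covered each other almost wholly, with means of 2634 ± 647 (SD, n = 4) and 2712 ± 651 (SD, n = 4). The log2 fold change of 0.04 had a 95% interval from -0.43 to 0.51 (edgeR, Benjamini-Hochberg adjusted P = 0.941). Its sign turned without WT mouse 24 (-0.10) and without MøFoxO1-KO mouse 26 (-0.14).

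The other genes of methionine, folate, choline and cysteine metabolism were taken from a list of 51 symbols, all of which were tested. By edgeR with Benjamini-Hochberg adjustment, 0 of the 51 were called and 0 had an adjusted P under 0.05, while 8 (15.7%) had an unadjusted P under 0.05, against 16.7% of all genes. DESeq2 gave an adjusted P under 0.05 for 4 of the 51 (7.84%), Mthfs, Chdh, Mat2a and Mthfd1l, against 4.42% of all genes. Of the 51 log2 fold changes, 18 were positive and 33 negative, and the median was -0.10. Over all 13278 tested genes, 6417 were positive and 6861 negative, and the median was -0.01.

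Among the 8, only Mthfs, whose enzyme returns 5-formyltetrahydrofolate to the folate pool, had a positive log2 fold change. It had 143, 123, 118 and 155 normalized counts in WT mice 22 to 25 and 209, 219, 191 and 211 in MøFoxO1-KO mice 26 to 29, a log2 fold change of 0.62 ± 0.14 (SE) (edgeR, Benjamini-Hochberg adjusted P = 0.102). The lowest MøFoxO1-KO mouse, at 191, exceeded the highest WT mouse, at 155. Over all alternative settings the log2 fold change of Mthfs ranged from 0.25 to 0.70. With library sizes set by the hepatocyte markers, Mthfs did not have an unadjusted P under 0.05 (edgeR). Mat2a, whose product is the methionine adenosyltransferase of tissues other than liver and of growing cells, had 386, 576, 311 and 304 normalized counts in the WT mice and 259, 184, 269 and 199 in the MøFoxO1-KO mice. The ranges did not overlap, 184 to 269 in MøFoxO1-KO mice against 304 to 576 in WT mice, and the log2 fold change was -0.79 ± 0.22 (SE) (edgeR, Benjamini-Hochberg adjusted P = 0.148).

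The other genes with non-overlapping groups belong to mitochondrial folate metabolism. Mthfd1l, which makes formate in mitochondria, had 62.6, 93.2, 76.4 and 38.7 normalized counts in WT mice and 20.1, 19.1, 20.8 and 34.6 in MøFoxO1-KO mice, a log2 fold change of -1.52 ± 0.33 (SE) (edgeR, Benjamini-Hochberg adjusted P = 0.0993). Slc25a32, the mitochondrial folate carrier, had 21.5, 69.7, 23.02 and 19.9 in WT mice and 17.2, 4.77, 10.4 and 13.4 in MøFoxO1-KO mice. Its log2 fold change was -1.52 ± 0.53 (SE) (edgeR, Benjamini-Hochberg adjusted P = 0.208), and it was -0.89 without mouse 23. In all, 4 of the 51 (7.84%) had groups that did not overlap, against 9.71% of all genes, and 10 of the 51 did so when CPM values were used without TMM, a setting under which 13.6% of all genes did so.

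The remaining genes at an unadjusted P under 0.05 had overlapping groups. Chdh, which oxidizes choline toward betaine, had a log2 fold change of -0.82 ± 0.22 (SE), and Mthfd2, a mitochondrial folate dehydrogenase, one of -0.91 ± 0.29 (SE). Csad, in taurine synthesis, and Gclc, the catalytic subunit of the enzyme that starts glutathione synthesis, had -0.62 ± 0.21 (SE) and -0.46 ± 0.18 (SE). Adjusted P values of these 4 lay between 0.134 and 0.237 (edgeR, Benjamini-Hochberg). The paralogs of the 9 genes other than Mat2a had log2 fold changes near 0, at 0.02 for Mat2b, 0.01 for Shmt2, -0.07 for Ahcyl1 and -0.15 for Ahcyl2.

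**Figure D3:**
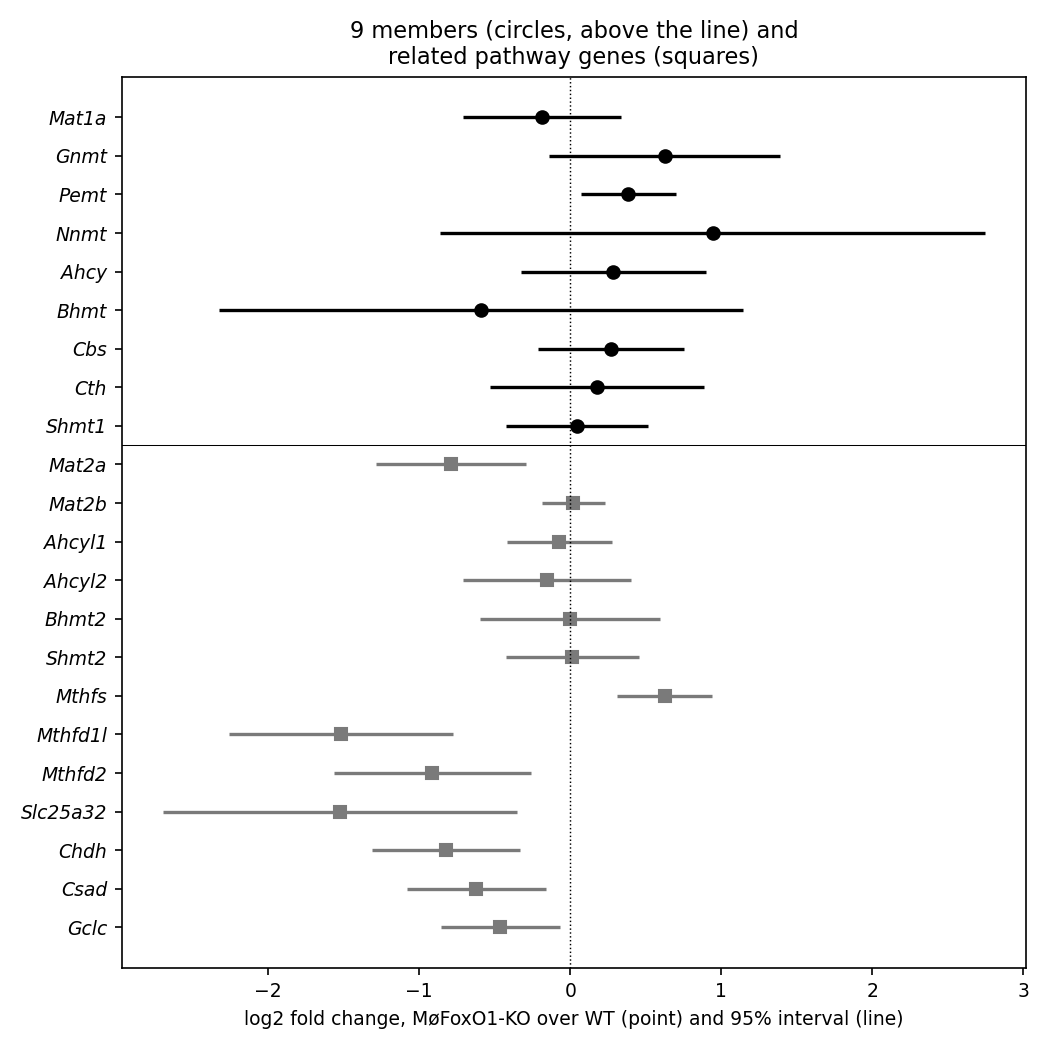
Log2 fold change of MøFoxO1-KO over WT livers with its 95% interval (edgeR), for the 9 genes (black circles), their paralogs and the pathway genes at an unadjusted P under 0.05 (grey squares). Of the 9 genes, only the interval of Pemt excludes 0, and the squares past 0 include 8 pathway genes that were shown for their P.

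Levels of different genes were compared as RPKM, the counts scaled to the summed exon length of the gene and to the library size after TMM. On this scale the mean level over the 8 livers was 987 ± 388 (SD) for Gnmt, 772 ± 202 for Mat1a, 393 ± 411 for Bhmt, 273 ± 81.3 for Ahcy, 159 ± 29.1 for Pemt, 103 ± 41.3 for Cth, 100.2 ± 24.8 for Cbs, 49.7 ± 44.0 for Nnmt and 42.0 ± 9.48 for Shmt1. Gnmt and Mat1a were thus at places 61 and 76 of the 13278 tested genes, and Shmt1 was at place 1179. The ranges of all neighbours in this order overlapped. Within single mice, Cbs exceeded Nnmt in 8 of 8, Mat1a exceeded Bhmt, Ahcy exceeded Pemt and Pemt exceeded Cth in 7 of 8, and Gnmt exceeded Mat1a in 5 of 8. Bhmt exceeded Ahcy in 3 of 8 mice, and Cth against Cbs and Nnmt against Shmt1 were split 4 to 4. The place of Ahcy is uncertain, because its reads could be confused with those of Gm4737, which had a mean of 190 ± 79.1 (SD). The order also depended on the length used. With the longest transcript in place of the summed exons, 4 of the 9 genes kept their place, Cbs was last with a mean of 53.8, Nnmt was at 75.0 and Pemt, at 334, was above Ahcy. Cbs then exceeded Nnmt in 4 of 8 mice, Ahcy exceeded Pemt in 3 of 8 and Cth exceeded Cbs in 8 of 8.

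Ratios within a mouse set the branches of the pathway against each other per length. The liver gene Mat1a exceeded Mat2a by 74.3-, 92.3-, 100.6- and 124-fold in WT mice 22 to 25 and by 136-, 154-, 95.0- and 220-fold in MøFoxO1-KO mice 26 to 29. Mouse 28 was the one MøFoxO1-KO mouse inside the WT range. Bhmt to Cbs, the remethylation enzyme against the first transsulfuration enzyme, ranged from 0.850 to 13.05 in WT mice and from 1.59 to 5.53 in MøFoxO1-KO mice. Cbs to Cth was 0.962 ± 0.134 (SD, n = 4) and 1.08 ± 0.269 (SD, n = 4). Gnmt to Pemt averaged 5.69 ± 2.86 (SD, n = 4) for WT mice, against 6.59 ± 1.39 (SD, n = 4) for MøFoxO1-KO mice, and Gnmt to Nnmt was 35.9 ± 20.1 and 34.8 ± 34.1 (SD, n = 4 each). The groups overlapped for each of these ratios. The size of a ratio depended on the length used: with the longest transcript, Cbs to Cth was 0.336 in WT mice and 0.376 in MøFoxO1-KO mice on average, Bhmt to Cbs 12.7 and 7.70, and Gnmt to Pemt 3.16 and 3.66.

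Variation between mice of 1 genotype was large for most of these genes. The SD within genotype of log2(normalized count + 1) was 1.58 for Nnmt and 1.40 for Bhmt, which placed them at percentiles 99.3 and 99.2 of the 10388 genes with a mean of at least 50 normalized counts. Gnmt (0.62), Cth (0.54) and Ahcy (0.47) lay at percentiles 92.7, 89.8 and 87.0, and Mat1a, Cbs and Shmt1 between 74.3 and 77.8. Pemt alone, at 0.19 and percentile 31.2, varied less than the median of those genes, which was 0.24. The smallest interval for the genotype difference was that of Pemt, and the widest were those of Nnmt and Bhmt.

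**Figure D4:**
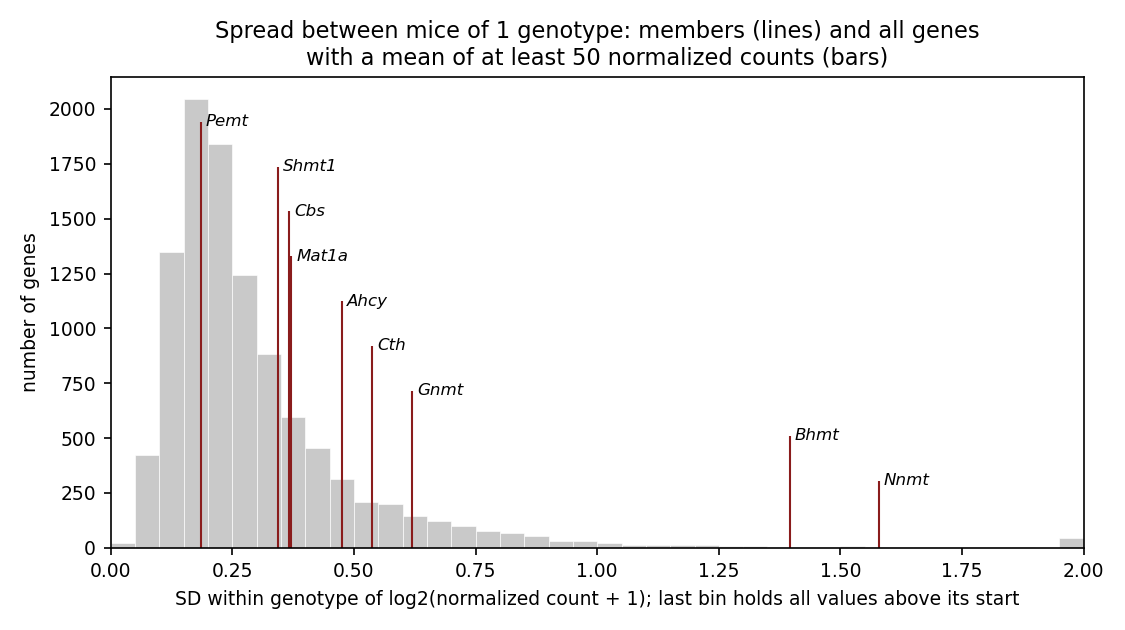
Number of genes (bars, genes with a mean of at least 50 normalized counts) by the SD within genotype of log2(normalized count + 1), with the 9 genes as labelled lines whose height has no meaning. Nnmt (1.58) and Bhmt (1.40) lie in the far tail, and Pemt (0.19) lies below the median.

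The deviations ran along individual mice of both genotypes. WT mouse 24 was below the mean of the 8 mice for 9 of the 9 genes, and WT mouse 22 and MøFoxO1-KO mouse 28 were below it for 8 of 9. MøFoxO1-KO mouse 27 was below it for 5, WT mouse 25 and MøFoxO1-KO mouse 29 for 2, and WT mouse 23 and MøFoxO1-KO mouse 26 for 1. Over all tested genes, 46.9 to 51.2% were below their mean in each mouse. The 51 pathway genes did not follow the 9 in every liver: 41.2% of them were below their mean in mouse 22 and 66.7% in mouse 29, as against 64.7% in mouse 24 and 72.5% in mouse 28. Mouse 29 was highest for Gnmt, Nnmt, Cbs and Cth, mouse 23 for Mat1a and Bhmt, mouse 26 for Ahcy and Shmt1, and mouse 27 for Pemt.

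Periportal hepatocyte markers showed low values in the same livers. The 8 markers were Hal, Sds, Cyp2f2, Pck1, Arg1, Ass1, Cps1 and Gls2. They summed to 68227, 126980, 67429 and 103591 normalized counts in WT mice 22 to 25. In MøFoxO1-KO mice 26 to 29 the sums were 97409, 101382, 72410 and 132270. The lowest sums were those of mice 24, 22 and 28, in which 7, 8 and 7 of the 8 markers were below their mean. The exceptions were Pck1 in mouse 24, at 20972, and Cyp2f2 in mouse 28, at 10836. Pericentral markers summed to 214548 to 314887 in WT mice and 239147 to 300043 in MøFoxO1-KO mice, with 6 of 8 markers low in mice 22 and 24 and 7 of 8 in mouse 28, but also 6 of 8 in mouse 29. General hepatocyte markers had another pattern, which followed genotype. Of the 8, 7, 7, 8 and 5 were below their mean in WT mice 22 to 25. In MøFoxO1-KO mice 26 to 29 the counts were 1, 0, 3 and 0. Macrophage markers were below their mean for 10 of 10 in mouse 28, 7 of 10 in mouse 22 and 5 of 10 in mouse 24. In the other livers the count was 8 of 10 in mice 23 and 25, 6 in mouse 26 and 2 in mice 27 and 29. The part of these markers in the values of the 9 genes was not tested.

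**Figure D5:**
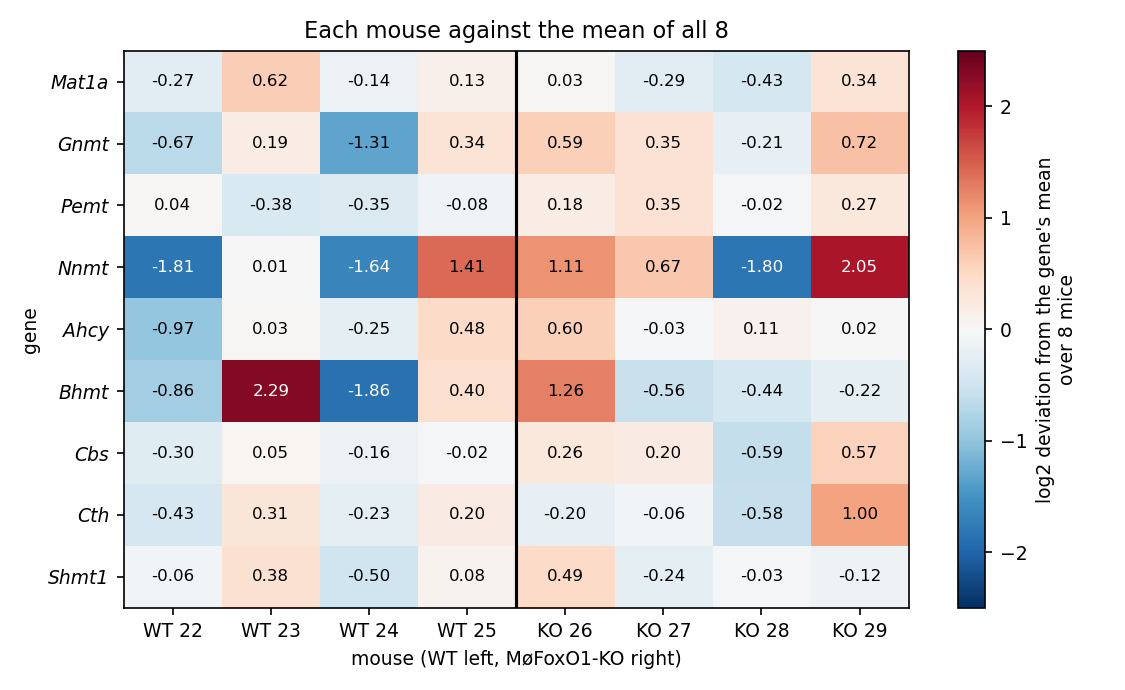
Log2 deviation of each liver from the mean over the 8 mice (color, and value in each cell) for the 9 genes, with WT mice to the left and MøFoxO1-KO mice to the right of the line. Mice 22, 24 and 28 are blue for nearly all genes, across both genotypes, and the strongest colors are in the rows of Nnmt and Bhmt.

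Genes whose pattern over the 8 mice was most like each of the 9 were listed by Pearson's r of log2 normalized counts. This is a description over 8 livers that share the genotype difference. For Gnmt the closest genes were Dpyd, which encodes the first enzyme of pyrimidine breakdown (r = 0.990), and Pxmp2 (r = 0.954). Pemt was closest to Mmaa, which serves the cobalamin-dependent methylmalonyl-CoA mutase (r = 0.992), and to Sil1 (r = 0.976). Nnmt was closest to Hgd, an enzyme of tyrosine breakdown (r = 0.9754), and to Med8 (r = 0.974). Bhmt was closest to its own copy Gm5096 (r = 0.985), with which it shares sequence, and to Ttc38 (r = 0.984). Cbs was closest to Leprotl1 (r = 0.985) and Ctsl (r = 0.978), and Cth to Stx7 (r = 0.962) and Fh1 (r = 0.949). Mat1a was closest to Gm5424 (r = 0.961) and Stam2 (r = 0.959), Ahcy to Lysmd4 (r = 0.941) and Bmp1 (r = 0.937), and Shmt1 to Aldh7a1, which oxidizes betaine aldehyde among other aldehydes (r = 0.967). None of the 9 genes was among the 2 closest to another.

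FoxO1, which was deleted here in myeloid cells, binds forkhead sites, and promoters were searched for that motif and for 2 common promoter elements. The windows were RefSeq promoters on GRCm38.p6, from 250 bases before to 50 bases after the start of a gene. Of the 9 genes, Ahcy, Bhmt, Cbs, Gnmt, Pemt and Shmt1 had a window, and Mat1a, Cth and Nnmt were not in the table. The CCAAT box (CCAAT on either strand) occurred in 6 of their 7 windows, while 37.4% of all 32851 promoters held it. Counted by gene, it occurred in 6 of 6, in 21 of the 41 other pathway genes with a window, and in 41.1% of all 27025 genes. The forkhead motif GTAAACA, on either strand, occurred in 0 of the 6 and in 3.65% of all promoters, and TATAAA occurred in 0 of the 6 and in 13.6% of all promoters. Of the 41 other pathway genes, 2, Mthfs and Ahcyl2, held GTAAACA, and 4 held TATAAA. Ahcyl2 had a log2 fold change of -0.15 with overlapping groups. The windows of Mat2a and Mthfd1l, whose groups did not overlap, held 0 matches to GTAAACA. Counted by gene, 4.05% of all 27025 genes held GTAAACA and 15.7% held TATAAA. A match of letters is a description and not a binding site. The promoters of Gnmt (chr17:46729116-46729415, minus strand) and Bhmt (chr13:93637709-93638008, minus strand) are shown with CCAAT or its complement ATTGG in capitals, since Gnmt had the highest level and Bhmt one of the widest spreads. The promoter of Mthfs (chr9:89210940-89211239, plus strand) is shown with GTAAACA in capitals, since Mthfs was the 1 pathway gene whose MøFoxO1-KO range lay wholly above the WT range. Mthfs was thus picked by its values in these data, and a link between the motif and the values was not tested.
Gnmt: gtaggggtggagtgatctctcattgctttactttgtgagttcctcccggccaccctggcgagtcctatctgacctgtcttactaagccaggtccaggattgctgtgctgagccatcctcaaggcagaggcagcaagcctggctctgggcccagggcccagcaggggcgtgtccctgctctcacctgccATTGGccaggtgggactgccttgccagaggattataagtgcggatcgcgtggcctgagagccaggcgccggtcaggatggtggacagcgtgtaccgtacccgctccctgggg
Bhmt: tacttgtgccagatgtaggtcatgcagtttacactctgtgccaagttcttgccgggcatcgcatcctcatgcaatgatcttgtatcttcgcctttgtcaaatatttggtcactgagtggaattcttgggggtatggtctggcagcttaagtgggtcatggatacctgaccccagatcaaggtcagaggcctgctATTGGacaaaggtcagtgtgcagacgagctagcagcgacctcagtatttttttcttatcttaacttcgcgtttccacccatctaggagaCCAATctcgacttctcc
Mthfs: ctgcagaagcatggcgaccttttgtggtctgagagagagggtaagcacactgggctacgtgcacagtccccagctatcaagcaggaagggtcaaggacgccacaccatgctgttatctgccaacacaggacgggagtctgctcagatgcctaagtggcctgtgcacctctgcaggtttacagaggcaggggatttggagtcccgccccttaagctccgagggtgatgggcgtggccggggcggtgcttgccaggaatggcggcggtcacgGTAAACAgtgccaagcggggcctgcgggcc
The Bhmt window holds 2 CCAAT boxes, 1 on each strand, and the Gnmt window holds 1 on the opposite strand. The Mthfs window holds 1 forkhead motif, which lies within the 50 bases after the start and not before it. Another Mthfs window (chr9:89211134-89211433, plus strand), not shown, holds the same match before its own start.

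The 9 genes lie on 7 chromosomes, 8 of them on the minus strand. Pemt and Shmt1 are 741615 bases apart on chromosome 11. All 9 had at least 250 counts in every mouse, and the highest count was 121521, so counting error was small beside the spread between mice.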

How the data were processed

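Polyadenylated RNA from whole liver of 4 WT and 4 MøFoxO1-KO mice was sequenced, and 1 table of read counts per Ensembl gene was deposited by the authors without normalization. The submitters' processing notes name STAR, featureCounts and mm10, and their versions, the use of strand and the handling of multiply matching reads are not given in the sources used here. The study's supplemental methods were not used here. Groups were taken from the sample labels.

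Genes were filtered with filterByExpr (minimum count 10, minimum total 15), which left 13278. The quasi-likelihood test of edgeR 4.0.16 (R 4.3.3) was applied after TMM normalization, with Benjamini-Hochberg adjustment over all tested genes. Calls needed both an adjusted P under 0.05 and a log2 fold change over 1.5 in either direction. Exact two-sided permutation tests of single genes used scipy 1.17.1. Total counts lay between 15253218 and 18025481 per mouse. The common biological coefficient of variation was 0.256.

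The 9 genes and the gene lists were chosen with earlier results of these data known. The genes named were the 9, their paralogs, pathway genes with an unadjusted P under 0.05 or groups that did not overlap, the 2 genes with the most similar pattern to each of the 9 (1 of these genes is not reported here), Foxo1 and Lyz2, and marker genes with their list. Gm4737, Gm9826 and the Bhmt copies were named after shared sequence was found. Lyz2, which marks myeloid cells and drives the Cre, had a log2 fold change of -0.77 ± 0.64 (SE).

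Alternatives were DESeq2 1.42.0, limma-voom (limma 3.58.1), the robust fit of edgeR, DESeq2 size factors, upper-quartile factors, library sizes set by hepatocyte markers, no filter, at least 10 counts in every mouse, 1 surrogate variable (sva 3.50.0), a log2 limit of 1, CPM without TMM, another gene length, and leaving out each mouse. In simulated data with 200 of 13106 genes changed by 2 on the log2 scale, more than any of the 9 genes here, 194 were found by edgeR at the adjusted P, beside 15 false calls, 197 by DESeq2 beside 41, and 194 by limma-voom beside 13. Smaller changes were not simulated. Python 3.11.15 with biopython 1.88 (sequences), numpy 2.4.6, pandas 2.3.3 (tables) and matplotlib 3.10.9 (figures) was used.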

Additional observations from a re-analysis of the deposited data

Results flagged for a closer look

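In 34 groups of 4 mice, from 17 genes, the most extreme mouse was compared with its nearest neighbour by Dixon's ratio, and 4 groups passed the critical value for 4 values at 95%, where chance gives about 1 in 20. Bhmt of MøFoxO1-KO mouse 26 had 58385 normalized counts, against 16637 to 20929 in the other MøFoxO1-KO mice. Gclc of the same mouse had 4255 normalized counts, the lowest of its group. Mthfd1l of MøFoxO1-KO mouse 29 had 34.6 normalized counts, the highest of its group. Slc25a32 of WT mouse 23, the library that stands furthest from the others, had 69.7 normalized counts.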

How the results depend on the processing

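No adjusted P of the 9 genes fell under 0.05 in any of the 19 fits, and the lowest was 0.0952, for Mat1a with library sizes set by hepatocyte markers (edgeR, Benjamini-Hochberg). The count of all called genes was 25, and it was 144 with DESeq2, 13 with limma-voom, 142 with hepatocyte marker library sizes, 120 without a filter on low counts, and 3 to 82 with 1 mouse left out. Of the 51 pathway genes, 1 was called in place of 0 with DESeq2, with hepatocyte marker library sizes and without a filter, and 4, 7 and 1 had an adjusted P under 0.05, where 586, 707 and 205 of all genes did. At an unadjusted P, 25 passed in place of 8 with hepatocyte marker library sizes, where 32.6% of all genes passed, and 16 with 1 surrogate variable, where 14.2% did. Of the 9 genes, 0 to 3 had an unadjusted P under 0.05 with 1 mouse left out: 0 without WT mouse 24 or MøFoxO1-KO mouse 27 or 29, and 3 without WT mouse 25 (Gnmt, Nnmt and Pemt) or MøFoxO1-KO mouse 28 (Cbs, Gnmt and Pemt). The share of all genes in these fits lay between 10.7 and 16.9%, at 16.5% without mouse 25 and 16.9% without mouse 28. With 1 mouse left out, groups did not overlap for 0 to 3 of the 9 genes, with 1 without WT mouse 22 (Pemt, 13.2% of all genes) and 3 without MøFoxO1-KO mouse 28 (Gnmt, Pemt and Cbs, 16.2% of all genes). They did not overlap for 4 to 8 of the 51 pathway genes, as against 11.4 to 16.9% of all genes, and for 10 of them by CPM without TMM, as against 13.6%. With the longest transcript as length, 4 of the 9 genes kept their place in the order of levels.

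Hepatocyte marker library sizes, which moved the median of all genes to -0.38, turned the log2 fold changes of Ahcy to -0.059, Cbs to -0.13, Cth to -0.22 and Shmt1 to -0.28. With 1 surrogate variable Mat1a was at 0.019 and Bhmt at 0.86, and limma-voom gave 0.0078 for Bhmt. With 1 mouse left out, the log2 fold changes ran from -0.35 to 0.027 for Mat1a, from -1.22 to 0.71 for Bhmt, from -0.26 to 0.38 for Cth and from -0.14 to 0.19 for Shmt1. The cause of these shifts was not tested. Depth was no limit for the 9 genes, whereas Slc25a32, at 4.77 to 69.7 normalized counts, carried counting error. So did Mthfd1l, at 19.1 to 93.2 normalized counts, and Mthfd2, at 21.2 to 58.0. No paired analysis was made, because the mouse numbers define no pairs and the sample labels used here name no litter.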
